A study of Homo sapiens with 7 samples.

Results

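The genes described here build the mitotic spindle, fasten chromosomes to it and pull the copies apart. A named list of 43 such genes was taken, and each gene was read from its probe set of highest mean over the 7 arrays of the series. All 43 of the 43 listed genes passed the filter on low signal, among 13618 genes tested. The values come from 7 arrays of cultures that descend from PC-3, an established human prostate cancer line. The in vivo sublines were recovered from organs of mice after intravenous injection, 1 array each. Among the 5, GS672.Ug (urogenital region), GS694.LAd (left adrenal) and GS689.Li (liver) are called PC-3-descended here, since TEM4-18 is not among their ancestors. The liver and adrenal sublines both arose from injected JD549.Ki, a kidney-derived line of PC-3 origin. The TEM4-18-grown sublines, from injected TEM4-18, are GS683.LALN from the left axillary lymph node, which the text on the design gives as lung, and JD1203.Lu from lung, whose source name reads JD549.Ki. TEM4-18, the line they are set against, was selected from PC-3 in culture for its migration through cultured lung endothelium, and has 2 arrays. All of these cultures express luciferase and grew untreated in DMEM/F12 with fetal bovine serum. Neither JD549.Ki nor parental PC-3 is analysed here.

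In dividing cells, CDK1 bound to a cyclin drives entry into mitosis, motors of the kinesin family sort spindle microtubules, and kinetochores join the microtubules to the centromeres. The spindle checkpoint holds back the anaphase-promoting complex until every chromosome is attached, after which CDC20 activates that complex and the chromosomes separate. Transcription of most of these genes is periodic and peaks from G2 into mitosis. It is held off earlier in the cycle by the DREAM complex and switched on by B-MYB and FOXM1, largely through a cell cycle homology region (CHR) and CCAAT boxes near the start of the gene. Their RNA level in a bulk culture therefore depends on the fraction of cells in those phases. In such samples, fewer cells in mitosis and less of the RNA in each cell cannot be told apart.

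Vimentin and keratin 18, both made by PC-3 cells, were abundant in every culture. VIM signal was 61696 to 81724 in the in vivo sublines and 67846 to 68304 in TEM4-18. KRT18 signal was 29052 to 38315 in the sublines and 35073 to 36144 in TEM4-18. KRT8, a further PC-3 marker, varied more, at 2775 to 7665 in the sublines and 5658 to 5884 in TEM4-18. KLK3, the prostate-specific antigen gene, which is usually silent in PC-3, was at 1143 to 1347 in the sublines and 730 to 787 in TEM4-18. The summed signal of 5 endothelial markers was 1100 to 2222 in the sublines and 725 to 974 in TEM4-18, with 1 of the 5 over the filter on low signal (PECAM1). For the 4 leukocyte markers the sum was 1110 to 1328 in the sublines and 597 to 1274 in TEM4-18. For the 4 fibroblast markers it was 4200 to 31461 in the sublines and 17127 to 18954 in TEM4-18, mostly COL1A1. The marker sums for hepatocytes, kidney tubule, adrenal cortex and lung epithelium stayed between 270 and 1873 in the sublines and between 176 and 1555 in TEM4-18. No marker was listed at 0. The part of other cell types in the results below was not tested. Whether the TEM4-18 duplicates are separate cultures is not given in the labels, so the p-values measure only the spread between these arrays, which may be technical.

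Most of the mitotic genes lay lower in the in vivo sublines than in TEM4-18, by modest amounts. The difference was below 0 for 42 of the 43 genes. Its median was -0.32 (log2), and it ran from -0.82 for KIF15 to 0.082 for CENPA. CCNB2 and ECT2, at -0.0080 and -0.0012, are counted among the 42 but lay at the level of TEM4-18. Over all 13618 genes the median was 0.030, with 46.2% of the genes below 0. Among the 6087 other genes whose mean log2 value fell in the range of the 43, the median was -0.027 and 54.3% were below 0. No gene of the 43 passed the test between the 5 in vivo sublines and TEM4-18 (limma, Benjamini-Hochberg adjusted p under 0.05 over all genes tested, 2-sided), nor did any of the 13618 (0%). At an unadjusted p under 0.05, 19 of the 43 were lower and 0 higher, while 2.73% of all genes were lower at that level. Of the 6087 other genes in the signal range of the 43, 252 were lower at that level. In 27 of the 43, all 5 sublines lay below both TEM4-18 arrays, which held for 6.98% of all genes and 10.3% of the 6087. A further 13 had 4 sublines below both arrays, PLK1 had 3, and CENPA and CCNB2 had 1. These counts set no minimum distance. In GS683.LALN, BUB1 counted as below at 8829 against 8848 in the lower TEM4-18 array, and ECT2 at 16603 against 16613.

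**Figure D1:**
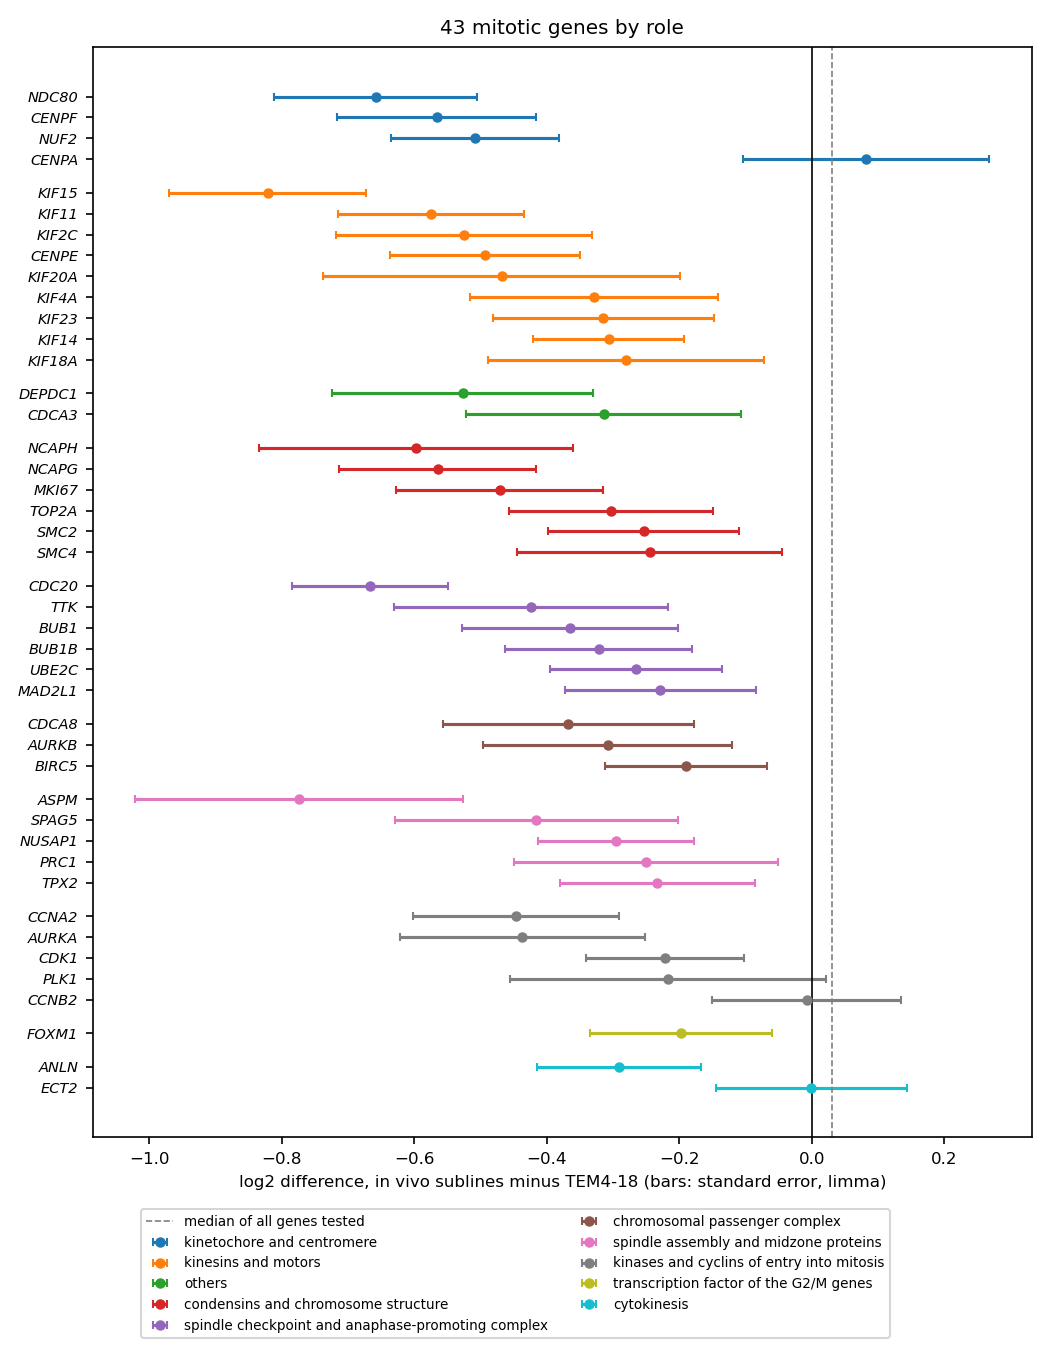
Log2 difference between the 5 in vivo sublines and the 2 TEM4-18 arrays for each of the 43 mitotic genes, grouped and coloured by role; points are limma estimates, bars their standard errors, the solid line 0 and the dashed line the median of all genes tested (0.030). KIF15 lies farthest left (-0.82), CENPA lies right of 0 (0.082), and ECT2 and CCNB2 lie on it.

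CDC20, KIF15, NDC80 and KIF11 had the 4 lowest p-values of the list in this comparison. CDC20 is the activator of the anaphase-promoting complex, KIF15 and KIF11 are kinesins that push the spindle poles apart, and NDC80 is the kinetochore protein that grips the microtubule. The 250 bases before the annotated start of each gene are shown because most genes of the list carry a CHR or CCAAT box there. The sequences are from RefSeq on GRCh38.p14 and are written on the plus strand, which is the strand of all 4 genes. CDC20 is chr1:43358731-43358980, KIF15 is chr3:44761544-44761793, NDC80 is chr18:2571307-2571556 and KIF11 is chr10:92592880-92593129. Capitals mark the CHR, TTTGAA or TTCAAA on the other strand, and the CCAAT box, CCAAT or ATTGG on the other strand.
CDC20: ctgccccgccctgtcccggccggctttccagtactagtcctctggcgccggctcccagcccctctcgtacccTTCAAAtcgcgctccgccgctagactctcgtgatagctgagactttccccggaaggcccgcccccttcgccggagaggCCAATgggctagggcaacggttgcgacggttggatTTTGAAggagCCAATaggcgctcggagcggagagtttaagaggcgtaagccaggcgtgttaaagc
KIF15: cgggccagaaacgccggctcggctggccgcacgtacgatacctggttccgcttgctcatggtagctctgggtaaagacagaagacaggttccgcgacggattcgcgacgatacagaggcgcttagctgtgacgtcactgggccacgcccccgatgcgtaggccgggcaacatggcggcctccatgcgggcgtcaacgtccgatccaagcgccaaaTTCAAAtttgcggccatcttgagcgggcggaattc
NDC80: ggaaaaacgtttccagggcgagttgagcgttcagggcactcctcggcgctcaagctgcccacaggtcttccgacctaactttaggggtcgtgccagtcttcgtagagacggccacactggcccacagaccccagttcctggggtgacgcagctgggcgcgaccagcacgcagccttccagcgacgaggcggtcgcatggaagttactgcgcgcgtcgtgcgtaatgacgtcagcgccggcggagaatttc
KIF11: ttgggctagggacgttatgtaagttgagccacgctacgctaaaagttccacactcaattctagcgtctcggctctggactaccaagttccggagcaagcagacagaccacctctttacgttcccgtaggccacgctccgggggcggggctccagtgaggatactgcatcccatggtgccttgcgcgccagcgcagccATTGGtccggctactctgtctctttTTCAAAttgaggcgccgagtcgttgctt
The CDC20 window holds 2 CHR matches, whose first bases lie at -178 and -65 from the start, and 2 CCAAT boxes at -100 and -55. KIF15 has a CHR at -35 and no CCAAT box in these bases. NDC80 shows none in full before its start, since its CHR begins at -3 and runs across the start. KIF11 has a CHR at -28 and a CCAAT box at -53.

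CDC20 (probe set 202870_s_at) had a signal of 11281 in GS672.Ug, 10818 in GS689.Li, 11823 in GS694.LAd, 10853 in GS683.LALN and 12336 in JD1203.Lu, against 17614 and 18680 in the TEM4-18 duplicates. The 5 sublines stood close together, and the highest of them was far under the lower TEM4-18 array. Their mean was 11422 ± 653 (SD, n = 5), or 62.9% of the TEM4-18 mean of 18147, and the difference was -0.67 ± 0.12 (log2, standard error, adjusted p = 0.21). KIF15 (219306_at) read 2540, 2654, 2914, 2839 and 2797 in GS672.Ug, GS689.Li, GS694.LAd, GS683.LALN and JD1203.Lu, and 5296 and 4509 in TEM4-18. Again all 5 sublines were alike and below both TEM4-18 arrays, at 2749 ± 150 (SD, n = 5). This was 1.77-fold lower, or -0.82 ± 0.15 (adjusted p = 0.21), the greatest distance from TEM4-18 of the 43 genes. Among all genes, CDC20 ranked 19th and KIF15 23rd by p in this comparison. Below, the values of the 5 sublines are given in the order GS672.Ug, GS689.Li, GS694.LAd, GS683.LALN and JD1203.Lu.

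The kinetochore genes split into 3 that lay lower and CENPA. For NDC80 (204162_at), the sublines read 7266, 7360, 7796, 9802 and 8741, and the TEM4-18 arrays 12629 and 13125. The PC-3-descended sublines were lowest and both TEM4-18-grown sublines between them and TEM4-18, with a difference over all 5 of -0.66 ± 0.15 (adjusted p = 0.298). NUF2 (223381_at), its partner in the same complex, read 5577, 5842, 6078, 5768 and 5446 in the sublines and 7984 and 8384 in TEM4-18. Its 5 sublines differed little from one another and did not overlap with TEM4-18, at -0.51 ± 0.13 (adjusted p = 0.35). CENPF (207828_s_at), a large protein of the outer kinetochore, read 9013, 9981, 10365, 12148 and 8987 in the sublines and 14168 and 15631 in TEM4-18. Here GS683.LALN came nearest to TEM4-18 without reaching it, and the difference was -0.57 ± 0.15 (adjusted p = 0.374). CENPA (210821_x_at), the histone variant that marks centromeres, read 4244, 5010, 5002, 6668 and 5864 in the sublines and 5074 and 4925 in TEM4-18. It was below TEM4-18 in GS672.Ug, at the same level in GS689.Li and GS694.LAd, and above it in both TEM4-18-grown sublines, for a difference of 0.082 ± 0.19 (adjusted p = 0.924), which became -0.00037 without GS683.LALN. Its probe set ends in _x_at, the maker's mark for probes that may bind related transcripts.

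All 9 kinesins and motors lay below TEM4-18, with a median difference of -0.47, and in 7 of them all 5 sublines were below both TEM4-18 arrays. KIF11 (204444_at), which slides antiparallel microtubules and is needed for a bipolar spindle, read 4403, 4277, 4847, 5119 and 4512 in the sublines and 6634 and 7188 in TEM4-18. The sublines lay in a narrow band under TEM4-18, at -0.57 ± 0.14 (adjusted p = 0.329). CENPE (205046_at), the kinesin that carries chromosomes to the spindle equator, read 5694, 5220, 5244, 5491 and 4484 in the sublines and 7335 and 7370 in TEM4-18. JD1203.Lu was lowest, and the other 4 stood together below TEM4-18, at -0.49 ± 0.14 (adjusted p = 0.407). The remaining motors ran from -0.53 for KIF2C, which takes microtubules apart at their ends, and -0.47 for KIF20A, to -0.28 for KIF18A, with KIF4A at -0.33, KIF23 at -0.31 and KIF14 at -0.31. KIF20A, singled out after its values were seen, varied most among the motors: it read 5096, 7915, 9105, 5478 and 4469 in the sublines and 8705 and 8427 in TEM4-18. GS694.LAd was above both TEM4-18 arrays there, and GS672.Ug and both TEM4-18-grown sublines well below.

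Among the genes of the spindle checkpoint and the anaphase-promoting complex, all 6 lay lower, with a median of -0.34. BUB1B (203755_at), the checkpoint kinase-like protein BubR1, read 13641, 11831, 10635, 13741 and 13424 in the sublines and 16264 and 15257 in TEM4-18. The lowest values were those of GS689.Li and GS694.LAd, and no subline reached TEM4-18, at -0.32 ± 0.14 (adjusted p = 0.596). MAD2L1 (203362_s_at), which encodes MAD2, the inhibitor of CDC20, read 15386, 14078, 15650, 19501 and 16022 in the sublines and 17802 and 19848 in TEM4-18. GS683.LALN lay between the duplicates and the other 4 below them, at -0.23 ± 0.14 (adjusted p = 0.692). The checkpoint kinases TTK and BUB1 were at -0.42 and -0.36, and UBE2C, the ubiquitin-conjugating enzyme of the anaphase-promoting complex, at -0.27. In these 3, all 5 sublines were below both TEM4-18 arrays.

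The kinases and cyclins that start mitosis differed least among the groups of 4 or more genes, with a median of -0.22 over 5 genes. CDK1 (203213_at) read 41996, 46089, 51409, 43927 and 39872 in the sublines and 49419 and 54464 in TEM4-18. GS694.LAd fell between the duplicates, the other 4 below them, and the difference was -0.22 ± 0.12 (adjusted p = 0.642). PLK1 (202240_at), a kinase of mitotic entry, spindle poles and cytokinesis, read 3574, 5424, 5404, 4390 and 3130 in the sublines and 5462 and 4550 in TEM4-18. GS689.Li and GS694.LAd lay within the range of the duplicates, and the groups overlapped, at -0.22 ± 0.24 (adjusted p = 0.838). AURKA (208079_s_at), the centrosome kinase, read 15806, 14945, 17278, 18195 and 11149 in the sublines and 21151 and 20219 in TEM4-18. All 5 sublines were lower, JD1203.Lu the farthest, at -0.44 ± 0.18 (adjusted p = 0.58). A second AURKA probe set (204092_s_at) of similar brightness gave -0.21, with 4 sublines below both TEM4-18 arrays, and the mean of the probe sets gave -0.25. CCNA2, cyclin A2, was at -0.45 with all 5 sublines below TEM4-18, while CCNB2, a B-type cyclin, was at -0.0080 with sublines on both sides of the duplicates.

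The chromosomal passenger complex corrects faulty attachments and later moves to the spindle midzone. AURKB (209464_at), its kinase, read 3477, 3175, 2657, 4197 and 3218 in the sublines and 3935 and 4286 in TEM4-18. BIRC5 (202095_s_at), which encodes survivin, read 26864, 23064, 23638, 27978 and 27486 in the sublines and 30845 and 27954 in TEM4-18. In both genes GS683.LALN lay between the duplicates and the other 4 sublines below them. The differences were -0.31 ± 0.19 for AURKB (adjusted p = 0.683), -0.19 ± 0.12 for BIRC5 (adjusted p = 0.699) and -0.37 for CDCA8, the subunit borealin.

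Genes of chromosome structure lay lower in 6 of 6, with a median of -0.39. NCAPG (218662_s_at) and NCAPH encode subunits of condensin, the ring that compacts chromosomes. NCAPG read 4206, 4425, 4669, 5043 and 3902 in the sublines and 6419 and 6740 in TEM4-18, without overlap, at -0.56 ± 0.15 (adjusted p = 0.374). NCAPH (212949_at) read 4363, 2917, 3366, 4004 and 2343 in the sublines and 5167 and 4922 in TEM4-18. It spread more than NCAPG: the difference was -0.60 ± 0.24 (adjusted p = 0.556), and in JD1203.Lu alone -1.09. MKI67 (212021_s_at), which coats mitotic chromosomes and is the antigen of the Ki-67 proliferation stain, read 4169, 5442, 5023, 5387 and 4439 in the sublines and 6776 and 6747 in TEM4-18. No subline came near the duplicates, which differed little, at -0.47 ± 0.16 (adjusted p = 0.478). TOP2A (201292_at), the topoisomerase that untangles sister DNA, read 11872, 13590, 15591, 16563 and 16222 in the sublines and 17628 and 18559 in TEM4-18. GS672.Ug was lowest and all 5 were below the duplicates, at -0.30 ± 0.15 (adjusted p = 0.631). The ATPase subunits SMC2 and SMC4 were at -0.25 and -0.24.

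Of the spindle assembly and midzone proteins, 5 of 5 lay lower, with a median of -0.30. ASPM (219918_s_at), which focuses microtubules at the spindle poles, read 7498, 7483, 7064, 5935 and 3933 in the sublines and 10746 and 10572 in TEM4-18. The PC-3-descended sublines were alike, the TEM4-18-grown ones lower, and JD1203.Lu lowest by far, at -0.77 ± 0.25 over all 5 (adjusted p = 0.453). A dimmer probe set of ASPM (232238_at, mean signal 605) gave -0.28 and the mean of its probe sets -0.50, so the size rests on the probe set used. SPAG5, NUSAP1, PRC1 and TPX2, which bind spindle microtubules, were at -0.42, -0.30, -0.25 and -0.23. In cytokinesis, ANLN, the contractile ring scaffold, was at -0.29 with all 5 sublines below the duplicates. ECT2 (219787_s_at), the exchange factor that activates RhoA at the cleavage site, read 20290, 16398, 16198, 16603 and 14282 in the sublines and 16613 and 16707 in TEM4-18. GS672.Ug was above TEM4-18, JD1203.Lu below and the other 3 close under the duplicates, for -0.0012 ± 0.14 (adjusted p = 0.998). With quantile normalisation of the arrays the ECT2 value was 0.017, so it has no settled sign.

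FOXM1 (202580_x_at), the transcription factor of the G2/M genes, read 5429, 6621, 5673, 6294 and 5943 in the sublines and 6904 and 6822 in TEM4-18. All 5 sublines lay a little below the duplicates, at -0.20 ± 0.14 (adjusted p = 0.718). DEPDC1 and CDCA3, placed in no role above, were at -0.53 and -0.31.

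**Figure D2:**
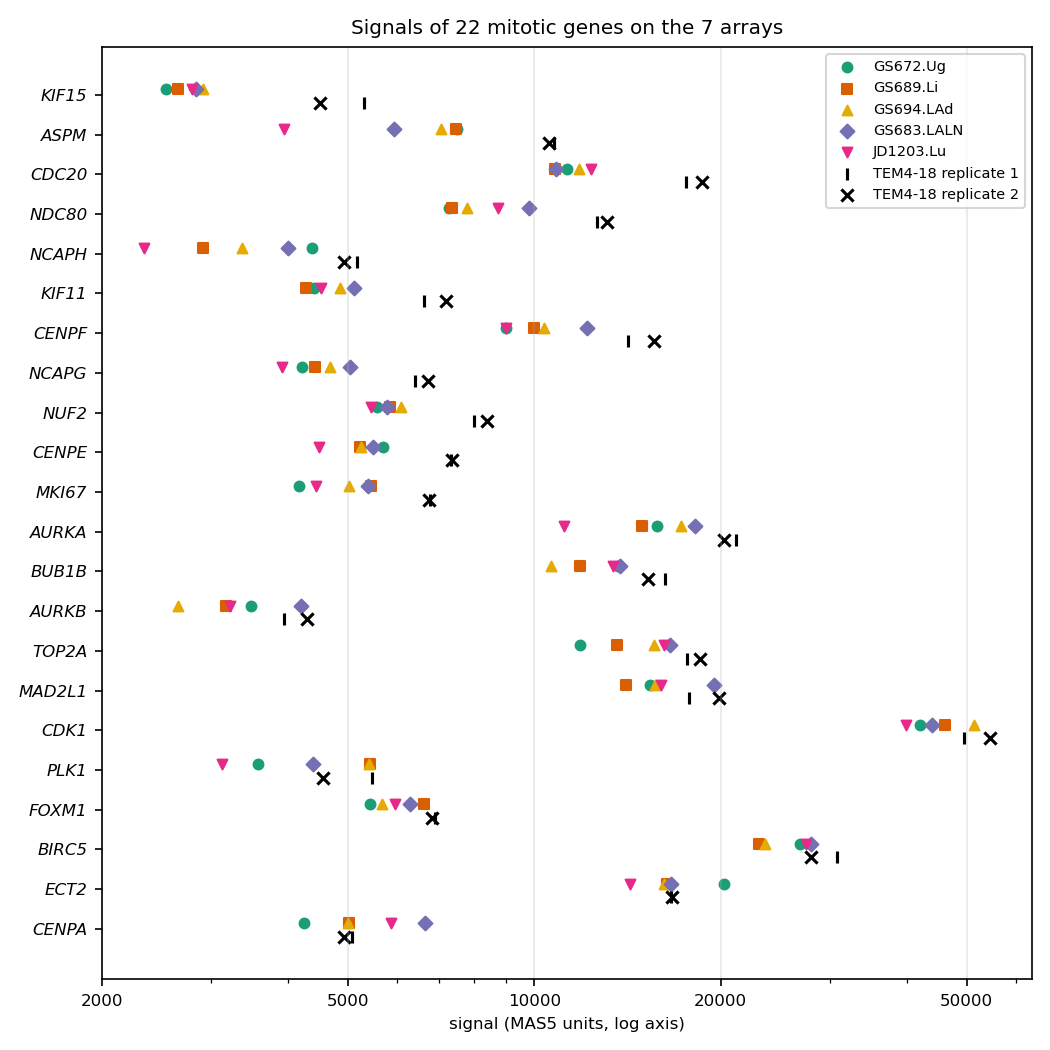
MAS5 signal (log axis) of 22 mitotic genes on each of the 7 arrays; coloured symbols are the 5 in vivo sublines, set above the black marks of the TEM4-18 duplicates in each row. In KIF15, ASPM, CDC20, NDC80 and KIF11 all 5 sublines stand apart to the left of TEM4-18, while in CENPA and ECT2 the groups overlap; signals of different probe sets are not comparable with each other.

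NDC80, CDC20 and KIF15 were lower in the 3 PC-3-descended sublines than in TEM4-18. NDC80 was 1.72-fold lower (-0.78 ± 0.13, adjusted p = 0.0152), CDC20 1.60-fold lower (-0.68 ± 0.12, adjusted p = 0.0213) and KIF15 1.80-fold lower (-0.85 ± 0.16, adjusted p = 0.0227; limma, n = 3 and n = 2), each lower in 3 of 3 sublines. These 3 of 43 genes, 6.98%, passed in a comparison where 3.29% of all genes passed, 136 of them lower and 312 higher. KIF11 came next, at -0.61 ± 0.14 (adjusted p = 0.0593). The difference was below 0 for 42 of the 43 genes, with a median of -0.38 against 0.048 over all genes, and ECT2 was above 0, at 0.073. The 3 calls rest on few arrays: the count was 0 without TEM4-18 replicate 1, TEM4-18 replicate 2, GS689.Li or GS694.LAd, 5 without GS672.Ug, and 8 without GS683.LALN or JD1203.Lu. It was also 0 with GS689.Li and GS694.LAd averaged as 1 sample, without the intensity trend in limma, or with JD1203.Lu counted with this group as its source name has it.

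Between the 2 TEM4-18-grown sublines and TEM4-18, none of the 43 passed (limma), where 0.0661% of all genes did. At an unadjusted p under 0.05, 15 of the 43 were lower and 0 higher, beside 4.49% of all genes lower. The difference was below 0 for 40 of the 43, with a median of -0.34 against 0.014 over all genes. CENPA (0.32), CCNB2 (0.074) and SMC4 (0.031) were above 0. With other probe sets, CCNB2 was at -0.72 (232768_at, mean signal 476), and SMC4 at -0.092 (201663_s_at) and 0.17 (215623_x_at). ASPM was the farthest from TEM4-18, at -1.13 ± 0.20 (adjusted p = 0.125), a 2.19-fold lower level, but only -0.31 with its dimmer probe set. Next were KIF20A at -0.79 ± 0.26 (adjusted p = 0.386) and KIF15 at -0.78 ± 0.17 (adjusted p = 0.203). With GS683.LALN left out, the count was 2, ASPM and AURKA, and the median -0.55. With JD1203.Lu left out, the count was 0 and the median -0.19. Each fit leaves a lone subline in its group and assumes that it varies like the others. With its second probe set AURKA was at -0.17 in the TEM4-18-grown pair, against -0.54 with the first. This comparison shares its TEM4-18 arrays with the PC-3-descended one.

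No gene of the 43 passed between the PC-3-descended and the TEM4-18-grown sublines, a contrast without the TEM4-18 arrays in which 3.72% of all genes passed (limma). The median was -0.055, with 25 genes lower and 18 higher, against 0.046 over all genes. At an unadjusted p under 0.05, 3 genes were lower, NDC80, CENPA and SMC4, beside 8.08% of all genes, and 2 were higher, ASPM and KIF20A, beside 11.4% of all genes. SMC4 read 29157, 21359 and 21939 in GS672.Ug, GS689.Li and GS694.LAd, against 35456 and 30510 in GS683.LALN and JD1203.Lu, at -0.46 ± 0.15 (adjusted p = 0.146). ASPM was the opposite case, at 0.60 ± 0.18 (adjusted p = 0.109), a value that rests on its first probe set. Against TEM4-18, its dimmer probe sets were at -0.31 (232238_at) and -0.41 (239002_at) in the TEM4-18-grown pair. Over all 5 sublines they were close to that, at -0.28 and -0.45. The sign of the median depended on GS683.LALN, without which it was 0.093. The count of genes that passed was 2 without GS672.Ug (KIF20A and SMC4) and 1 without GS683.LALN (ASPM).

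By subline, the mitotic genes lay lowest in JD1203.Lu and nearest to TEM4-18 in GS683.LALN, although both were grown from TEM4-18. The median difference from the mean of the duplicates was -0.46 in GS672.Ug, -0.41 in GS689.Li, -0.34 in GS694.LAd, -0.19 in GS683.LALN and -0.55 in JD1203.Lu. The medians over all genes were 0.040, 0.066, 0.064, 0.0098 and 0.039 in the same order. Below the mean of the duplicates were 41, 39, 38, 37 and 41 of the 43 genes. JD1203.Lu was the lowest of the 7 arrays for 20 of the genes, GS672.Ug for 13, GS689.Li for 8 and GS694.LAd for 2. The highest array was TEM4-18 replicate 1 for 14 genes and TEM4-18 replicate 2 for 19. With 1 array a subline these are sizes without a test.

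**Figure D3:**
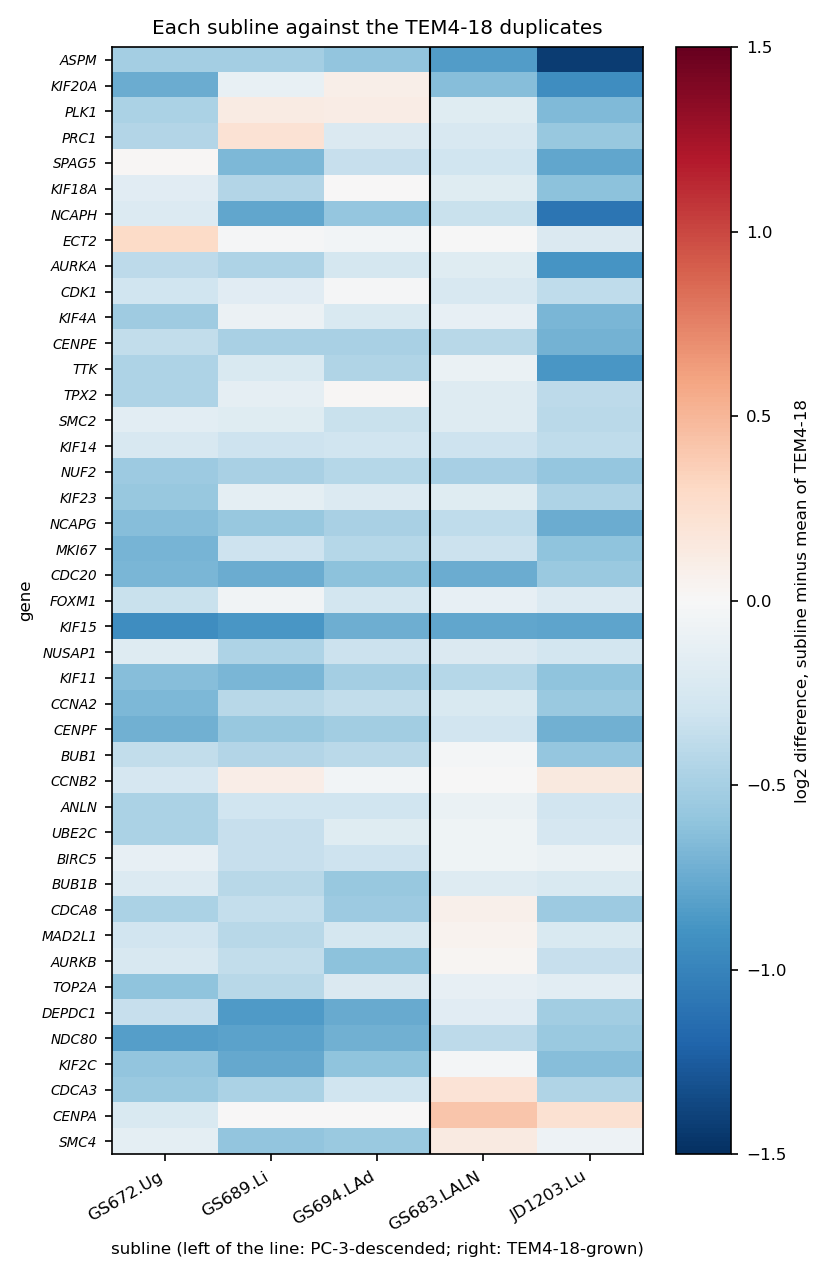
Log2 difference of each mitotic gene in each in vivo subline from the mean of the TEM4-18 duplicates; blue is lower and red higher than TEM4-18, with rows ordered by the difference between PC-3-descended and TEM4-18-grown sublines. The JD1203.Lu column is the darkest (median -0.55) and the GS683.LALN column the palest (median -0.19), and the 19 red cells of 215 are spread over 14 genes, with 4 in CENPA, 2 each in CCNB2 and PLK1 and 1 in each of the others.

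Few of the differences in a single subline were large. At least 2-fold below the mean of the duplicates and below both of them were ASPM (-1.43) and NCAPH (-1.09) in JD1203.Lu, 2 of the 43, where 3.96% of all genes met that rule. In the other sublines 0 of the 43 met it, beside 2.22% of all genes in GS672.Ug, 2.61% in GS694.LAd, 2.33% in GS689.Li and 3.03% in GS683.LALN. KIF15 came closest there, at -0.93 in GS672.Ug. Between the TEM4-18 duplicates, 0 of the 43 genes were 2-fold apart. Their root mean square difference there was 0.11 (log2), compared with 0.41 over all genes tested. Between the liver and adrenal sublines, of 1 parent, it was 0.17 for the 43 and 0.45 for all genes. Many of the genes tested had a lower mean signal than any of the 43, so neither comparison with all genes is matched for signal. Whether the 43 vary less than other genes of like signal was not tested. For the 43 genes, the remaining pairs of sublines ran from 0.29 (GS672.Ug and GS694.LAd) to 0.38 (GS683.LALN and JD1203.Lu). Pairs of a subline and a TEM4-18 array ran from 0.32 (GS683.LALN and TEM4-18 replicate 2) to 0.60 (JD1203.Lu and TEM4-18 replicate 1). The spread between most sublines was thus wider than between the duplicates, and these ranges overlap.

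GS689.Li and GS694.LAd, the sublines with a passage through kidney, did not stand apart from the other sublines more often in the list than among all genes. Both stood above all 3 other sublines in 6 genes (CDK1, KIF20A, NUF2, PLK1, PRC1 and TPX2) and below all 3 in 6 others (AURKB, BIRC5, BUB1B, DEPDC1, NUSAP1 and SMC4). Among all genes these patterns held for 19.8% and 15.2%, in each case a larger share than in the list. TPX2, the activator of AURKA on the spindle, read 20040 and 22345 in GS689.Li and GS694.LAd, against 16006, 19259 and 16812 in GS672.Ug, GS683.LALN and JD1203.Lu. DEPDC1 read 4606 and 4911 in that pair, against 6514, 7380 and 5798 in the other 3. Both examples were picked after the values were seen, and neither pattern was tested.

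Other probe sets of the same genes mostly had the same sign. For 23 of the 43 genes, 41 further probe sets passed the filter, 39 of them with a difference below 0 and a median of -0.29. With a mean signal of 1000 or more there were 28, of which 27 were below 0, with a median of -0.31. In size some differed. Of the 23 genes, the brightest further probe set was over 1.5 times nearer 0 in 4 (ASPM, AURKA, AURKB and SMC2) and over 1.5 times farther from 0 in 4 (CCNB2, CDCA3, ECT2 and MAD2L1). SMC2 was at -0.024 with its further probe set against -0.25 with the first, and AURKB at -0.14 against -0.31. MAD2L1 was at -0.36 against -0.23, and CENPF at -0.83 (209172_s_at) against -0.57. For ECT2 a second probe set (234992_x_at) was at -0.21, where the first gave -0.0012, so the probe sets of this gene disagree.

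Of the 43 genes, 37 had a promoter window in the RefSeq table, from 250 bases before to 50 after the annotated start. AURKA, BIRC5, FOXM1, TPX2, TTK and UBE2C had no entry. The letters TTTGAA on either strand were found in 30 of the 37 windows (81.1%) and in 10.2% of the windows of the 10991 genes tested that have one. Within 50 bases on either side of the start they were found in 24 of the 37 (64.9%), beside 2.81% of the tested genes. CCAAT on either strand was found in 26 (70.3%), beside 36.8%. Both motifs occurred in 21 (56.8%), beside 4.28%. A CHR and a CCAAT match share a base in MKI67 and CDCA8, and a match describes the sequence only. The list was chosen by function and not by promoter. BUB1B carried its match at -23, PLK1 and CCNB2 at -29 and NCAPG at -35. The 7 genes without TTTGAA (AURKB, BUB1, CCNA2, CENPE, KIF20A, KIF2C and NCAPH) had a median difference of -0.47 between the in vivo sublines and TEM4-18, and the 30 with it -0.31. The 11 genes without CCAAT had a median of -0.49 and the 26 with it -0.31. Outside the list, all 1087 tested genes with TTTGAA had a median of 0.0047 with 49.8% below 0. The 449 of them that also had CCAAT were at -0.042 with 53.7% below 0. The 285 other genes with TTTGAA within 50 bases of the start had -0.065 with 59.6% below 0, and the 9867 genes without TTTGAA had 0.026 with 46.5% below 0.

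**Figure D4:**
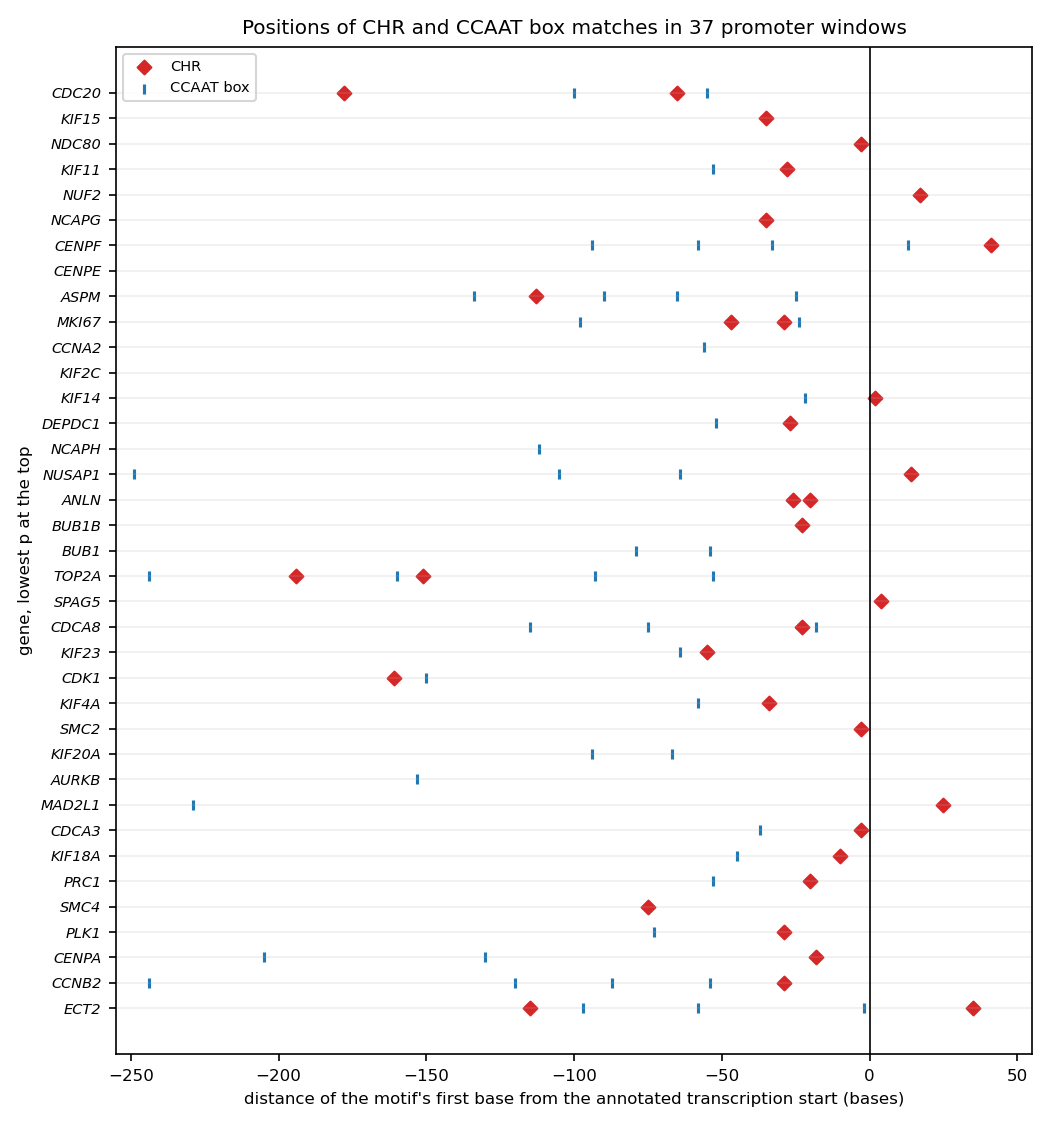
Position of each CHR match (red diamonds) and CCAAT box match (blue ticks) in the promoter windows of the 37 mitotic genes with one, in bases from the annotated transcription start, with the gene of lowest p for in vivo sublines against TEM4-18 at the top. CHR matches gather within 50 bases of the start in 24 genes. Genes without any lie in the middle of the order of p, from CENPE to AURKB, with none at the top or bottom.

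Neighbouring pathways were read from lists of other genes. Of 94 further mitotic genes, 91 were tested, and 72 lay below TEM4-18 in the in vivo contrast. Their median was -0.20, and none of them passed the test. In the PC-3-descended sublines 1 of the 91 passed, DLGAP5, which encodes a spindle-stabilising protein and was lower than in TEM4-18. It read 13006, 11727 and 11858 in the PC-3-descended sublines, 43904 and 28904 in the TEM4-18-grown ones, and 37238 and 41333 in TEM4-18. All 3 PC-3-descended sublines were far below the rest, at -1.68 ± 0.17 against TEM4-18 (adjusted p = 0.00207) and -1.54 ± 0.17 against the TEM4-18-grown sublines (adjusted p = 0.0024). DLGAP5 lies on chromosome 14, which holds 127 of the 448 genes that passed in the PC-3-descended sublines and 452 of the 13598 tested genes placed on a chromosome; 0 of the 43 genes lie there. Of the others, INCENP, a passenger complex subunit, was at -0.95 with only 127 in JD1203.Lu, SGO2 at -0.61 and PIMREG at -0.53.

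Replication genes, active in S phase, lay lower as well: 23 of 24 tested, of 25 listed, with a median of -0.38. In the PC-3-descended sublines, RFC2 of the clamp loader and the helicase subunits MCM4, MCM5 and MCM7 were lower than in TEM4-18. They were at -0.96 to -0.87 (limma, adjusted p from 0.013 to 0.0299). MCM4 was also lower in the PC-3-descended than in the TEM4-18-grown sublines, at -0.86 ± 0.19 (adjusted p = 0.0439). The medians of the replication genes by subline followed another order than the mitotic genes: -0.17 in GS672.Ug, -0.53 in GS689.Li, -0.57 in GS694.LAd, -0.19 in GS683.LALN and -0.38 in JD1203.Lu. The kinesins that carry cargo in interphase did not lie lower: 12 of 16 were above TEM4-18, with a median of 0.13, and none passed against TEM4-18. KLC1, a kinesin light chain on chromosome 14, was higher in the PC-3-descended than in the TEM4-18-grown sublines, by 1.24 ± 0.23 (adjusted p = 0.0224). KIF5C was at 1.07 but with signals of 146 to 534 in the sublines and 37.1 and 167 in TEM4-18, near the filter on low signal.

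Among 16 tested regulators of the G2/M genes, 11 lay lower, with a median of -0.21. CDKN1A, which encodes the CDK inhibitor p21, was higher in the PC-3-descended sublines than in TEM4-18, by 1.90 ± 0.23 (limma, adjusted p = 0.00441). It read 2505, 3716 and 3275 in the PC-3-descended sublines, 2004 and 2367 in the TEM4-18-grown pair, and 661 and 976 in TEM4-18. All 5 sublines lay above both duplicates, at 1.69 ± 0.27 over the 5 (adjusted p = 0.156) and 1.39 ± 0.26 in the TEM4-18-grown pair (adjusted p = 0.133). NFYA, a subunit of the factor that binds CCAAT boxes, was lower in the PC-3-descended sublines than in TEM4-18, at -0.72 ± 0.14 (limma, adjusted p = 0.0299). MYBL2, which encodes B-MYB, read 3955, 5812 and 5835 in the PC-3-descended sublines and 2894 and 1985 in the TEM4-18-grown ones, and 6311 and 6324 in TEM4-18. It was higher in the PC-3-descended than in the TEM4-18-grown sublines, by 1.08 ± 0.22 (adjusted p = 0.0351). MYBL2 was lowest in JD1203.Lu, then GS683.LALN and GS672.Ug, where the medians of the 43 mitotic genes were -0.55, -0.19 and -0.46. It was close to TEM4-18 in GS689.Li and GS694.LAd, where those medians were -0.41 and -0.34. How MYBL2 or the other regulators relate to the mitotic genes in these cultures was not tested. RBL2, the pocket protein p130 of the DREAM complex, was lower in the PC-3-descended than in the TEM4-18-grown sublines, at -1.03 ± 0.21 (adjusted p = 0.0309), and RBL1 was at -0.56 in all 5 sublines against TEM4-18 (adjusted p = 0.457).

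**Figure D5:**
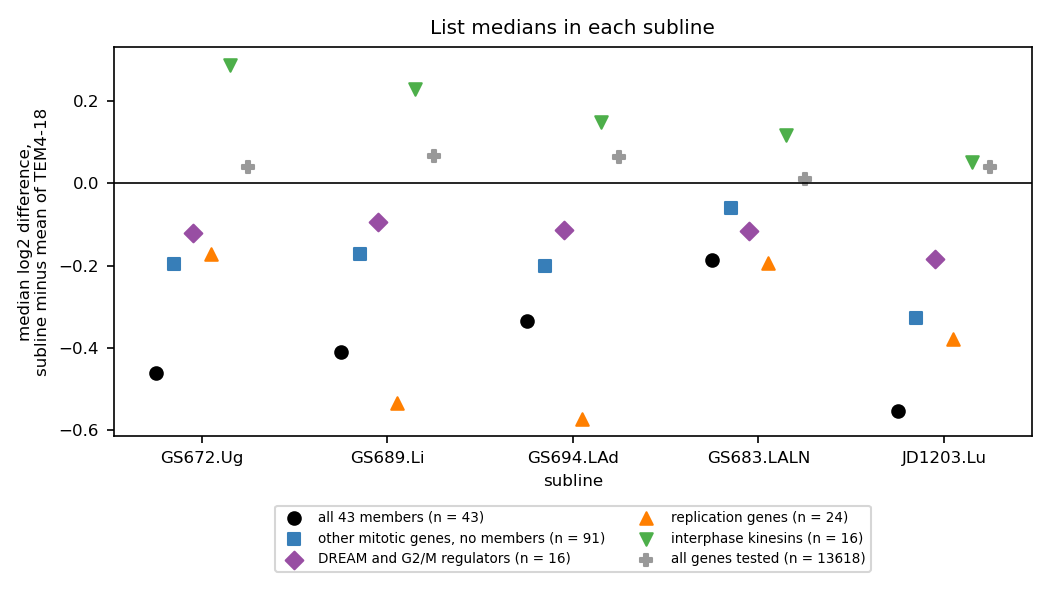
Median log2 difference from the mean of the TEM4-18 duplicates in each in vivo subline, for the 43 mitotic genes (black circles), 91 further mitotic genes, 16 G2/M regulators, 24 replication genes, 16 interphase kinesins and all 13618 genes tested. The 43 genes run from -0.55 to -0.19 and stay below 0 in every subline, while the interphase kinesins run from 0.053 to 0.29.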

How the data were processed

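Total RNA of the cultures was labelled with biotin and hybridised to 1-colour Affymetrix arrays, 7 in all. The deposited values are linear intensity values made with MAS5, per the submitters' processing notes, which name no version. The authors had scaled the arrays: the mean of the middle 96% of the 54675 probe sets was 1500.18 to 1500.2 on all 7, while the array medians were 239 to 297. No scan date or batch was given, and sequencing depth does not apply: the number of arrays limits the precision.

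Before taking log2, 46.9 was added to each value (the 20th percentile over the table), which makes differences of dim genes look smaller. Probe sets whose mean reached the 40th percentile were kept. Of all probe sets 41097 have 1 gene symbol in the platform annotation, 1801 several and 11777 none, and 62 are controls; the probe set of highest mean stood for each gene, which gave 13618 genes. limma 3.58.1 in R 4.3.3 (lmFit, eBayes with intensity trend, Benjamini-Hochberg over all genes, adjusted p under 0.05, 2-sided) tested 4 contrasts. All 5 in vivo sublines against TEM4-18 used a model of 2 groups, and the other 3 contrasts a model of 3 groups. The code was tested on simulated data. Errors are standard errors unless called SD.

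The members, the gene lists and the tests were chosen with earlier results of these data known, so the lists are described by counts and medians beside those of all genes and carry no test of their own. Values on every array are given for genes that passed any contrast, the 10 of lowest p in the first contrast, those 2-fold lower in a subline, 12 central mitotic genes and the 2 with the highest signed difference. Of the other lists, genes that passed and up to 4 of largest size are named. Alternatives changed the offset, filter, scaling, probe set, moderation, the arrays included and the parent of JD1203.Lu. Promoter windows came from RefSeq (GRCh38.p14), and no protein sequence was used.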

Additional observations from a re-analysis of the deposited data

Results flagged for a closer look

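The 5 in vivo sublines were examined for each of the 43 genes for an array far from the rest, by the gap to the nearest value over the whole range. Only KIF2C met the critical value of 0.71 for 5 samples. This microtubule-depolymerising kinesin had a signal of 14798 in GS683.LALN, against 8859 to 10022 in the other 4 sublines, a gap of 0.76 of the range on the log2 scale. GS683.LALN thus lay next to the TEM4-18 duplicates at 15055 and 15149. About 5% of groups pass this limit by chance, so 1 of 43 is no more than chance gives.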

How the results depend on the processing

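Against TEM4-18, the list's median stayed below 0 under every scaling and probe set choice tried, while the calls of single genes rested on few arrays. Over 17 alternatives the median of the 43 genes for in vivo sublines against TEM4-18 ran from -0.39 to -0.31, and over 18 alternatives that of the PC-3-descended sublines from -0.48 to -0.33 and that of the TEM4-18-grown sublines from -0.55 to -0.19. Each single-subline median was below 0 in all 11 alternatives run for it. With median centring, which shifts the median of all genes from 0.048 to -0.047, the PC-3-descended median was -0.48. The median between PC-3-descended and TEM4-18-grown sublines ran from -0.18 to 0.093 as each array was left out, and changed sign without GS683.LALN; it was 0.0040 with the second probe set of each gene.

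The number of the 43 genes past the test for in vivo sublines against TEM4-18 was 0 in all 18 alternatives. For the PC-3-descended sublines it was 3, with 0 to 8 when an array was left out, and 0 with no intensity trend, with GS689.Li and GS694.LAd averaged and with JD1203.Lu counted among them. CDC20, KIF15 and NDC80 each passed in 12 of 19 alternatives, with adjusted p from 0.0134 to 0.267, 0.0158 to 0.324 and 0.00892 to 0.203. Over all genes the count in this contrast was 448, and 158 with no trend, 145 with that pair averaged, 14 with JD1203.Lu moved and 31 to 925 with an array left out. When an array was left out, 0 to 2 of the 43 passed in the TEM4-18-grown sublines and 0 to 2 between both kinds of subline. The cause was not tested.

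ECT2 changed sign around 0, at 0.017 with quantile normalisation, 0.0064 with that pair averaged and -0.072 to 0.054 as arrays were left out, and CENPA ran from -0.00037 to 0.16 as arrays were left out. CENPA and FOXM1 gave no value without probe sets ending in _x_at. No paired analysis was possible because the labels match no subline array with a TEM4-18 array. Only TEM4-18 has replicate numbers there. With 2 arrays of TEM4-18 and 1 of each subline, spread within a subline cannot be measured.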
